A study of Homo sapiens with 12 samples.

Results

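The genes described here encode 35 aminoacyl-tRNA synthetases, 19 that act in the cytosol and 16 that act in mitochondria, among the 20056 protein-coding genes of the RefSeq annotation. They were taken from a fixed list of symbols, and the mitochondrial enzymes are those whose symbol ends in 2. Every peak that overlapped the span of a listed gene by at least 1 bp was assigned to it, on either strand, which gave 88 of the 28047 peaks of the NAT10 knockdown list and 77 of the 34365 peaks of the control list. All 35 symbols were found in the annotation. Peaks of the knockdown list lay on 30 of the genes and peaks of the control list on 27.

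The series measured N4-acetylcytidine (ac4C), an acetylated cytidine in RNA, in RBE, a human intrahepatic cholangiocarcinoma cell line. RBE cells with a lentiviral short hairpin RNA against NAT10 (sh-NAT10), selected with puromycin as a stable line, were set against RBE cells with a control hairpin (sh-NC). RNA was cut into fragments of 100 to 200 bp and precipitated with an ac4C antibody, and an input was kept. Both arms had 3 immunoprecipitates and 3 inputs, 12 libraries in all. Resistant colonies were expanded, and the labels do not describe the control virus further. The values used here are 1 deposited peak list per arm, each peak with a position, a strand and a score. No source used here states the scale of that score. No list separates the replicates, so no spread between replicates can be given, no test between arms was possible, and every difference below is a difference between lists. Sequencing depth is unknown, RNA levels are not in the lists, and the part of either in the counts was not tested.

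Aminoacyl-tRNA synthetases join each amino acid to its transfer RNA and so set the meaning of the genetic code. Cytosolic and mitochondrial translation mostly use separate enzymes, all made from nuclear genes. A group of cytosolic synthetases is held together by scaffold proteins in the multisynthetase complex. NAT10, with its adaptor THUMPD1, places ac4C on the transfer RNAs for serine and leucine, and it also acetylates ribosomal RNA. Messenger RNAs have been described as NAT10 substrates as well, and peaks on the synthetase genes may concern that kind of site. Gene spans include introns, and some peaks lie on the opposite strand or also cover other genes.

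NAT10, the targeted gene, had 5 peaks in both lists, and the lists do not measure its RNA level, so they do not check the knockdown. Of 8 biliary markers, 6 carried peaks in each arm, and EPCAM and CFTR had none in either. Neuronal markers had 10 peaks in the knockdown list, on 6 of 13 genes, and 90 in the control list, on 12 of 13. The lists of astrocyte markers had 1 and 16 peaks and of oligodendrocyte markers 0 and 16, with GFAP, ALDH1L1, MOG, MOBP and MAG at 0 in both. The other marker lists had 2 and 2 peaks for hepatocytes, 1 and 4 for fibroblasts, and 6 and 6 for immune cells. These genes are part of the protein-coding background used below, and their part in that background was not tested.

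Stretches of peak sequence can be shown where a RefSeq promoter window or microRNA hairpin lies under a peak. Of the 30 synthetase genes with a promoter window, only GARS1 had a peak of up to 1000 bp in its own window. GARS1 encodes the glycine enzyme, made in a cytosolic and a mitochondrial form from a single gene. Both lists held the same 50 bp plus-strand peak there (hg38 chr7:30594899-30594948), with a score of 21.95 in the knockdown list and 19.63 in the control list. It begins 21 bases after a listed start of the gene, and its first 29 bases are shown with every cytidine in capitals.
GARS1, chr7:30594899-30594927, plus strand: ggaCagCCCagggCCgCaggCtCatgCCC
Of these bases 41.4% are cytidines, against a median of 27.6% at the same positions of 35116 RefSeq promoter windows.

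On the opposite strand of FARSA, which encodes the catalytic subunit of the cytosolic phenylalanine enzyme, the knockdown list alone held a 25 bp peak (chr19:12930522-12930546). Its score of 55.20 was the highest of any peak on a synthetase gene in either list. The peak starts exactly at the listed start of FARSA-AS1, the antisense RNA gene that overlaps FARSA, so its assignment to FARSA is uncertain. Next to it on the minus strand, a 75 bp peak of the control list (chr19:12930257-12930331, score 11.13) had no counterpart in the knockdown list. Both are shown with cytidines in capitals, the second for the 60 bases that the window covers.
FARSA-AS1, chr19:12930522-12930546, plus strand: CagtCgCtggaaaagagaggCtgCa
FARSA, chr19:12930272-12930331, minus strand: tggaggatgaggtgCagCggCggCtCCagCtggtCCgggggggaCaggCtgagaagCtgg
Cytidines make up 20.0% of both stretches, and the median over the promoter windows at the positions of the first is 28.0%.

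Another stretch lies in QARS1, the gene of the glutamine enzyme, whose peaks recurred in both arms. A peak of 313 bp in the knockdown list and 288 bp in the control list ended at the same upstream base and reached into the hairpin of MIR6890, a microRNA on the same strand. The 61-base hairpin is shown with the 24 bases under the peak in capitals, and its 3p mature microRNA, which lies wholly under the peak, with its seed (bases 2 to 8) in capitals.
MIR6890 hairpin, chr3:49099854-49099914, minus strand: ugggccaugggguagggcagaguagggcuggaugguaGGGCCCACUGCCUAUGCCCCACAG
hsa-miR-6890-3p, chr3:49099854-49099873, minus strand: cCACUGCCuaugccccacag
Whether the peak stems from the microRNA precursor or from the QARS1 transcript cannot be told apart. The sequence of the remaining peaks is not analysed here.

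Synthetase genes carried peaks in both arms more often than protein-coding genes at large. In the knockdown list 85.7% of them had a peak, against 42.0% of all protein-coding genes, and in the control list 77.1% did, against 47.1%. Peaks of both arms lay on 26 of the 35 genes, 4 had them in the knockdown list only, 1 in the control list only and 4 in neither. Among protein-coding genes with any peak, 13.4% had them in the knockdown list only and 22.8% in the control list only. The median gene span was 32831 bp for the synthetases and 24092 bp for protein-coding genes.

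In the lists as deposited, more synthetase genes had an excess than a deficit of knockdown peaks, while protein-coding genes as a whole had the reverse. More peaks in the knockdown than in the control list were found on 13 of the 31 synthetase genes with any peak (41.9%), against 33.3% of all 10915 protein-coding genes with a peak. Fewer were found on 8 (25.8%), against 46.1%, and 10 had as many in both. The difference rests in part on wide peaks: with peaks of up to 1000 bp only, 9 of 26 genes had more and 9 fewer, with 58 knockdown and 57 control peaks, beside 33.8% and 48.6% of protein-coding genes. The reverse lean of protein-coding genes did not hold at equal list length, while the lean of the synthetase genes grew. With the control list shortened by score to the length of the knockdown list, 18 of 31 synthetase genes had more and 3 fewer, and protein-coding genes leaned the same way, with 44.8% more and 36.8% fewer. Counting only genes with a peak in both lists, 9 had more and 7 fewer of 26, beside 31.2% and 36.5% of protein-coding genes.

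**Figure D1:**
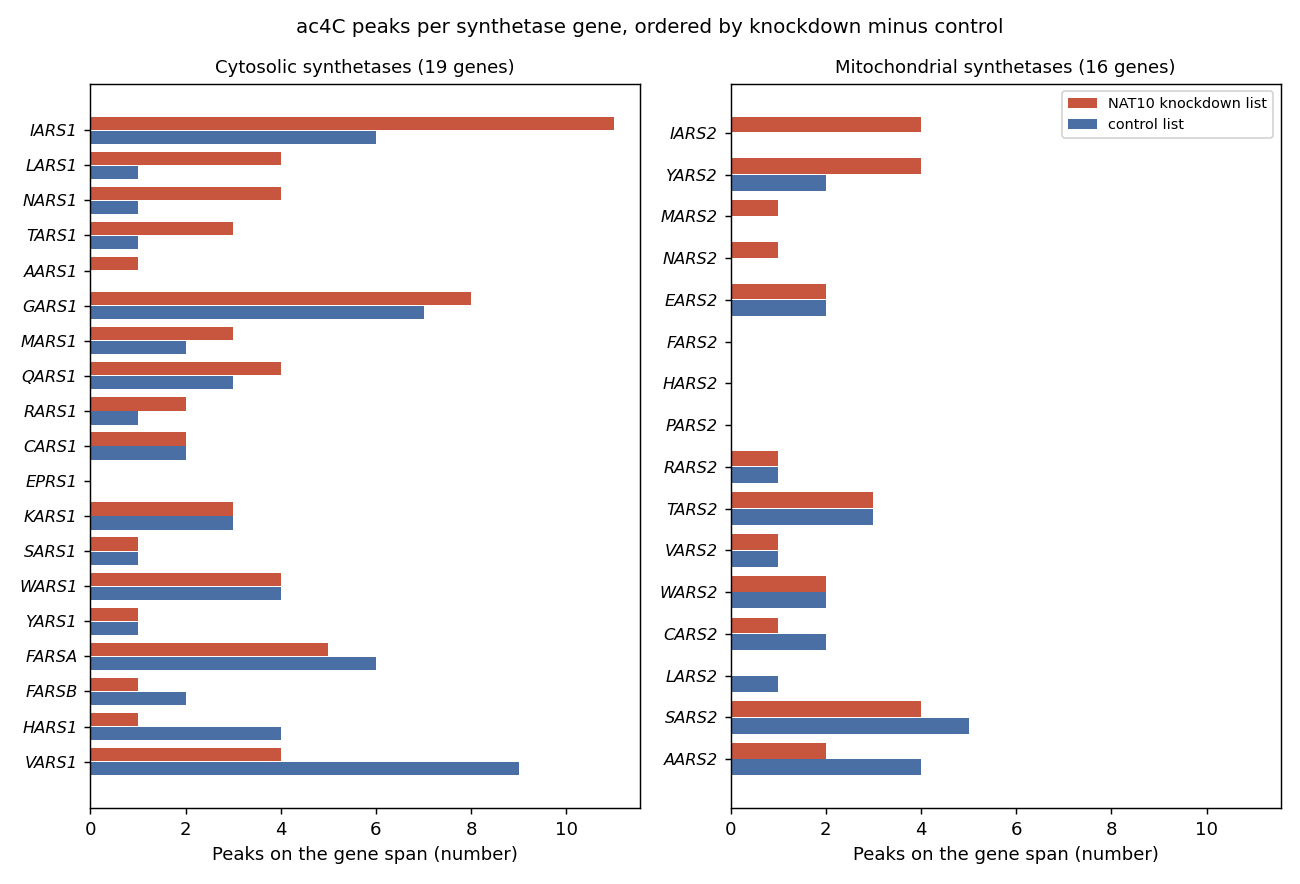
Number of peaks on each synthetase gene in the NAT10 knockdown list (red, upper bar) and the control list (blue, lower bar), for 19 cytosolic and 16 mitochondrial enzymes ordered by the difference. IARS1 has 11 and 6 peaks at the top of the cytosolic panel and VARS1 has 4 and 9 at its bottom, and 4 genes have no bar.

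Cytosolic enzymes had more peaks per gene than mitochondrial ones in both arms, and they held most of the peaks of each list. Knockdown minus control came to 8 peaks on cytosolic and 3 on mitochondrial genes. With peaks of up to 1000 bp only, these differences were 1 and 0. In the knockdown list, 18 of 19 cytosolic genes had 62 peaks and 12 of 16 mitochondrial genes had 26. In the control list, 17 cytosolic genes had 54 peaks and 10 mitochondrial genes had 23. Among the cytosolic genes 9 had more and 4 fewer peaks in the knockdown list, and among the mitochondrial genes 4 had more and 4 fewer. Median gene spans were 32831 bp for cytosolic and 28403 bp for mitochondrial enzymes. The difference between the classes was not tested, since genes are not replicates, and without GARS1 and KARS1, whose products serve both compartments, the cytosolic split was 8 to 4.

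**Figure D2:**
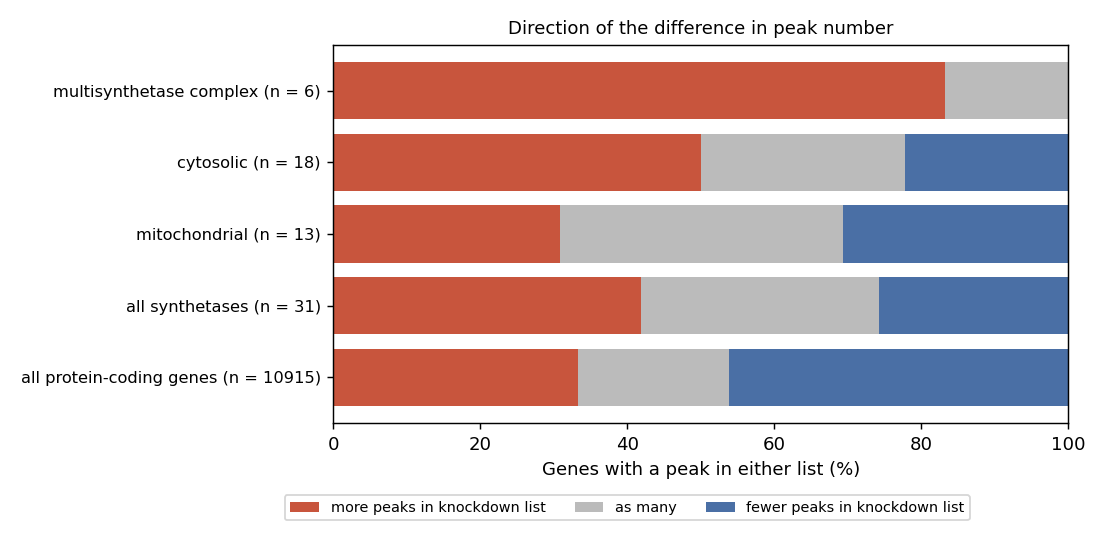
Share of genes with more (red), as many (grey) and fewer (blue) peaks in the knockdown list than in the control list, among genes with a peak in either list, with the number of genes at the left. More peaks are found on 83.3% of the complex genes, on 9 of 18 cytosolic and 4 of 13 mitochondrial genes, and on 33.3% of all protein-coding genes.

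Enzymes of the multisynthetase complex leaned most towards the knockdown list. Of 7 such genes listed, 5 had more peaks in the knockdown list (IARS1, LARS1, MARS1, QARS1 and RARS1), KARS1 had as many, and EPRS1, the fused glutamate and proline enzyme, had no peak in either list. Together they had 27 knockdown and 16 control peaks, or 16 and 10 without IARS1. The 12 cytosolic enzymes outside the complex had 35 knockdown and 38 control peaks, with 4 genes higher, 4 lower and 4 equal. Counting peaks of up to 1000 bp only, 4 complex genes had more and 1 had fewer. With peaks within 100 bp merged, 5 had more and 1 fewer, and with peaks in 1 gene only, 4 had more and 0 fewer. In the lists as deposited, 33.3% of all protein-coding genes with a peak had more and 46.1% fewer.

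IARS1, the isoleucine enzyme (chr9:92210207-92293697), had the largest excess of knockdown peaks, with 11 peaks in the knockdown list and 6 in the control list. Scores ran from 10.18 to 40.56 in the knockdown list and from 10.90 to 17.57 in the control list. Of each set 3 overlapped the other list. The shared knockdown peaks began 7071, 42851 and 43401 bases from the gene start, and a 125 bp knockdown peak with the score of 40.56 covered a 75 bp control peak scored 12.86. The other knockdown peaks included one of 1259 bp scored 29.37 and one of 75 bp scored 27.91, both without a control peak on the same stretch.

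LARS1, the leucine enzyme, had 4 knockdown peaks and 1 control peak. Their scores were 10.27, 11.08, 12.40 and 14.90 in the knockdown list, against 18.27 in the control list. The control peak, 4919 bp wide, overlapped a knockdown peak of 2621 bp towards the end of the gene, and the other 3 knockdown peaks lay upstream of it. Serine and leucine enzymes charge the transfer RNAs that carry ac4C. SARS1 had 1 peak in both lists, 5509 bp wide and displaced by 25 bp between them, scored 11.55 and 11.51. Mitochondrial SARS2 had 4 knockdown and 5 control peaks, and LARS2 had 0 knockdown peaks and 1 control peak, 3800 bp wide with a score of 11.75.

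MARS1, which charges methionine, had 3 knockdown and 2 control peaks. A wide peak was shared, 8066 bp with a score of 23.45 in the knockdown list and 7587 bp with 12.40 in the control list. A 50 bp peak scored 23.64 and a 7311 bp peak scored 14.46 were in the knockdown list only, and a 189 bp peak scored 18.52 in the control list only. RARS1, the arginine enzyme, had 2 knockdown peaks scored 40.16 and 11.14, against 1 control peak of 25 bp scored 10.37, and none overlapped. KARS1, the lysine enzyme, had 3 peaks in both lists with 1 shared.

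QARS1 (chr3:49095932-49104757) had the steadiest pattern of the complex. Its 3 control peaks, scored 10.61, 11.10 and 11.67, each overlapped a knockdown peak, scored 14.68, 12.90 and 15.65. Of these, the pairs scored 14.68 and 10.61, and 15.65 and 11.67, had the same start and end in both lists. The remaining knockdown peak, 150 bp wide and scored 11.07, lay 764 bases from the gene start.

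**Figure D3:**
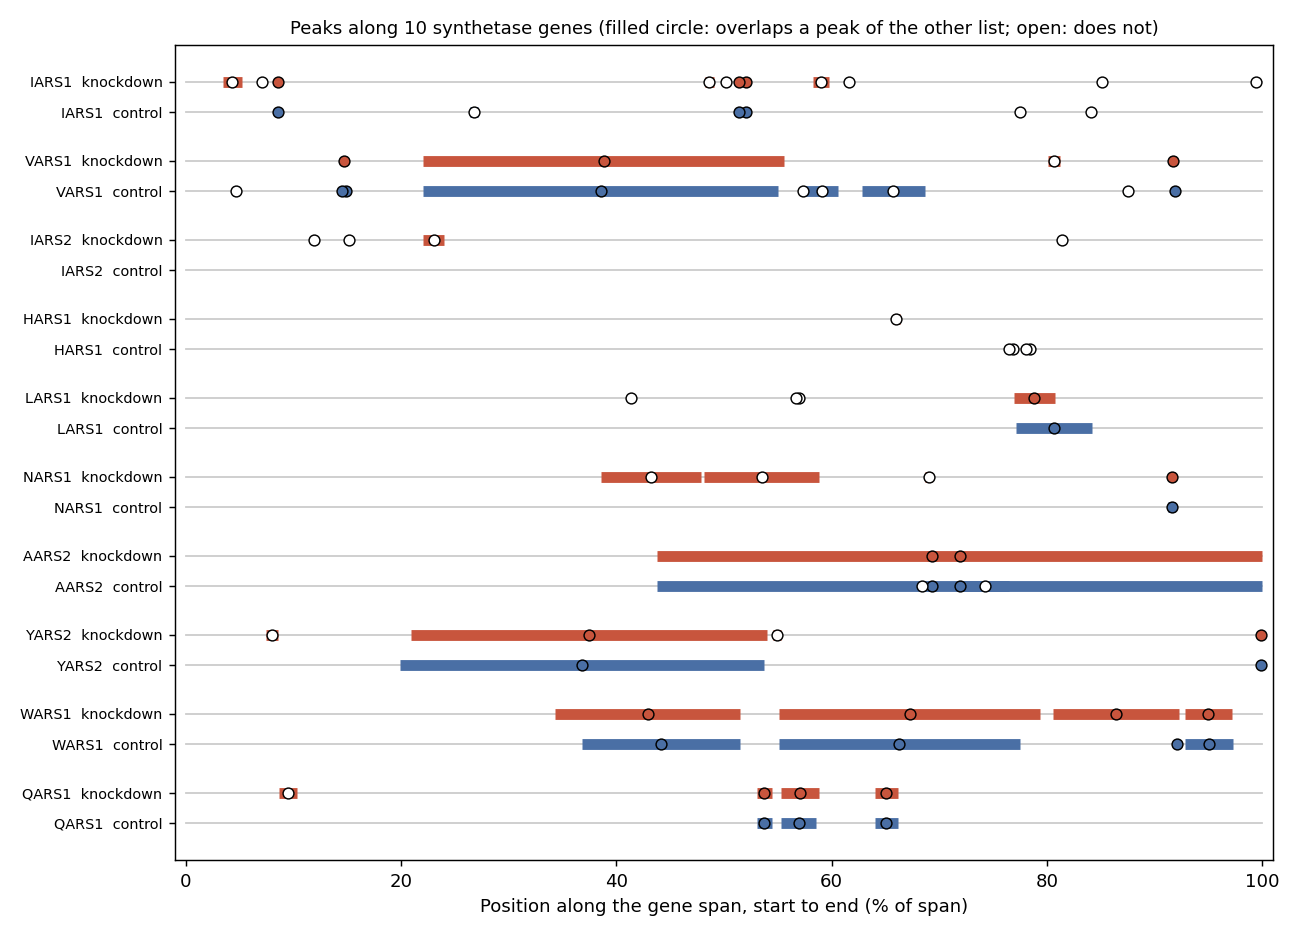
Peaks along the 8 synthetase genes with the largest difference in peak number, and along WARS1 and QARS1, with position as a percent of the gene span and the knockdown list above the control list for each gene. Thick lines span the peaks to scale, clipped at the ends of the gene, filled circles mark peaks that overlap the other list and open circles those that do not. IARS1 holds 3 shared positions and 8 knockdown peaks without a counterpart, and none of the 5 HARS1 peaks overlap.

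Outside the complex, NARS1, TARS1, AARS1 and GARS1 had more knockdown than control peaks. NARS1, the asparagine enzyme, had 4 knockdown peaks scored 10.54, 11.06, 11.41 and 20.97, against 1 control peak scored 11.19. That control peak overlapped a knockdown peak with the same downstream boundary, and the peaks scored 20.97 and 11.41 were 2268 and 1969 bp wide. TARS1, the threonine enzyme, had 3 knockdown peaks and 1 control peak. The shared pair started at the same base and was scored 12.93 in the knockdown list and 10.97 in the control list, while a 168 bp knockdown peak scored 30.81 had no counterpart. AARS1, the alanine enzyme, had a single knockdown peak of 1397 bp scored 12.71 and no control peak. GARS1 had 8 knockdown and 7 control peaks, of which 6 overlapped in each list. The control peak without overlap, 75 bp wide and scored 11.67, lay on the strand opposite to the gene. Near the end of GARS1 a shared pair was scored 35.68 over 75 bp in the knockdown list and 11.47 over 50 bp in the control list.

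VARS1 and HARS1 had the largest deficits of knockdown peaks. VARS1, the valine enzyme, had 4 knockdown peaks scored 12.30, 13.01, 20.88 and 25.44, against 9 control peaks with scores between 10.13 and 11.68. All of the control scores lay close to the lower edge of 10 at which most deposited scores begin. A knockdown peak overlapped 4 of the 9 control peaks and none overlapped the other 5. A 100 bp knockdown peak covered a pair of control peaks 25 bp apart. Another pair of control peaks, without a knockdown counterpart, also lay 25 bp apart. How such stretches are divided can change the count, and its part in the 5 peaks by which the lists differ was not tested. Knockdown peaks also lay close together on genes with an excess, LARS1, NARS1 and YARS2. With peaks within 100 bp merged, all synthetase genes together had 79 knockdown and 65 control peaks. HARS1, the histidine enzyme, had 1 knockdown peak of 125 bp scored 29.58, against 4 control peaks of 25 to 75 bp scored 10.89, 10.90, 11.74 and 12.63. The control peaks sat within a stretch at 76.46 to 78.46% of the span and the knockdown peak at 66.01%. The number of HARS1 control peaks may also depend on how that short stretch was divided, which was not tested. HARS2, the close mitochondrial copy of HARS1 that starts next to it on the other strand, had no peak in either list. Reads of the pair could be assigned to either copy, which was not tested.

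FARSA had 5 knockdown and 6 control peaks. Apart from the antisense peak, its 4 knockdown peaks all overlapped control peaks, with scores of 12.48, 23.38, 14.34 and 16.83 in the knockdown list. FARSB, the partner subunit, had 1 knockdown peak scored 12.19 and 2 control peaks scored 10.38 and 10.32, with no overlap. WARS1, the tryptophan enzyme, had 4 peaks in both lists, and each overlapped the other list. All 4 were over 1000 bp in the knockdown list, and 3 of 4 in the control list. In order along the gene, its scores were 32.02, 29.93, 15.40 and 13.81 in the knockdown list, against 17.24, 41.60, 22.53 and 13.28 in the control list. The control score of 41.60 was the highest on any synthetase gene in that list. CARS1 had 2 peaks in both lists. YARS1 had 1 in both, at different places, scored 10.74 in the knockdown list and 20.23 in the control list.

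Among mitochondrial enzymes, IARS2 stood out. It had 4 knockdown peaks, scored 13.26, 14.26, 14.36 and 18.56, and 0 control peaks. All 4 lay on the plus strand inside IARS2 alone, and 3 were no wider than 135 bp. MARS2 and NARS2 also had a knockdown peak only, but these were weak assignments. The MARS2 peak was 73017 bp wide with a score of 0 and also spans BOLL, and the NARS2 peak was 8163 bp wide, scored 11.28, and overlaps a second gene. LARS2 alone had a control peak only. With peaks that overlap 1 gene only, the knockdown-only genes were 2 in number.

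AARS2 had 2 knockdown and 4 control peaks. Both knockdown peaks were present with the same coordinates in the control list, a 135 bp peak scored 11.45 in the knockdown list and 10.28 in the control list, and a 33461 bp peak with a score of 0 in both, on the opposite strand. YARS2 had 4 knockdown and 2 control peaks, of which 1 in each list was a 19049 bp peak that reaches only the edge of the gene. Its other control peak, 3168 bp and scored 34.99, overlapped a 3093 bp knockdown peak scored 10.53. TARS2 had 3 peaks in both lists, EARS2 and WARS2 2 in both, and RARS2 and VARS2 1 in both, and only WARS2 among these had a shared pair. CARS2 had 1 knockdown and 2 control peaks without overlap. FARS2, HARS2 and PARS2 had no peak in either list. FARS2 has the longest span of the family, 521650 bp.

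High-scoring peaks on these genes were more frequent in the knockdown list. Of the knockdown peaks on synthetase genes, 18 of 88 had a score of 20 or more (20.5%, 95% Wilson interval 13.35 to 30.03), against 4 of 77 in the control list (5.19%, 2.04 to 12.6). On all protein-coding genes the shares were 14.7% and 11.7%. Cytosolic genes held 17 of 62 knockdown peaks of that score (27.4%, 17.9 to 39.6) and 3 of 54 control peaks (5.56%, 1.91 to 15.1), and mitochondrial genes 1 of 26 and 1 of 23. The knockdown peaks fell on 10 cytosolic genes and on WARS2, and the control peaks on WARS1, YARS1 and YARS2. Of the complex peaks, 6 of 27 in the knockdown list and 0 of 16 in the control list reached the score, and 0 of 16 allows a share of up to 18.8%, taking 3 peaks as the limit of a count of 0. WARS1 held 2 of the 4 control peaks, and without it the counts were 16 of 84 in the knockdown list and 2 of 73 (2.74%) in the control list. The intervals cover counting error only and treat peaks as independent, which peaks of 1 gene are not. The share at a score of 20 or more was chosen as a result after seeing the data, and the intervals do not allow for that choice.

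The size of this difference depended on the score chosen. At 15 or more, 26 of 88 knockdown peaks (29.5%) and 20 of 77 control peaks (26.0%) on synthetase genes passed, close to the 28.7% and 24.7% of protein-coding genes. The cytosolic genes alone had 23 of 62 (37.1%) and 12 of 54 (22.2%), while the mitochondrial ones had 3 of 26 (11.5%) and 8 of 23 (34.8%). At 30 or more, 6 of 88 knockdown peaks (6.82%) and 2 of 77 control peaks (2.60%) passed, against 6.74% and 4.79% of those on protein-coding genes. Scores come from lists of different lengths and may not share a scale, so they describe each list as deposited.

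**Figure D4:**
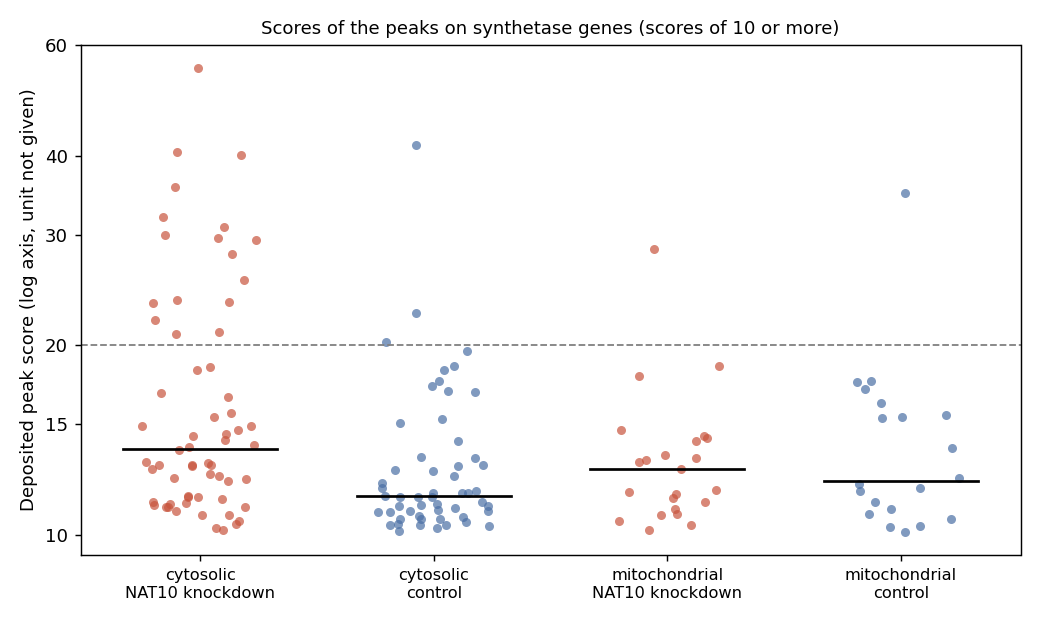
Deposited scores, on a log axis, of each peak on cytosolic and mitochondrial synthetase genes in the NAT10 knockdown list (red) and the control list (blue), with a black bar at the median of the points drawn and a dashed line at 20. In the knockdown list 17 cytosolic peaks lie at or above the line, against 3 in the control list, and 3 peaks in each list with scores under 10, all mitochondrial, are not drawn.

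Somewhat under 50% of the peaks on synthetase genes recurred in the other arm. In the knockdown list 39 of 88 overlapped a control peak on the same strand (44.3%, 95% Wilson interval 34.4 to 54.7), against 54.9% on all protein-coding genes. In the control list 38 of 77 had a knockdown peak on the same stretch (49.4%, 38.5 to 60.3), against 45.3%. The same start and end were found for 7 pairs, on AARS2, FARSA, GARS1, QARS1 and YARS2, which is 7.95% of the knockdown and 9.09% of the control peaks. On protein-coding genes those shares were 18.6% and 15.3%. Cytosolic genes shared 30 of 62 knockdown and 31 of 54 control peaks, and mitochondrial genes 9 of 26 and 7 of 23.

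Peaks on these genes lay less towards the end of the gene than is usual in the lists. Among peaks of up to 1000 bp on the strand of the gene, 7 of 57 in the knockdown list (12.3%) and 10 of 56 in the control list (17.9%) had their midpoint in the last 10% of the span. For all protein-coding genes the shares were 23.7% and 31.6%. The first 10% held 8 of 57 knockdown and 5 of 56 control peaks, against 9.12% and 7.24% for protein-coding genes. Spans include introns, and the parts of the transcript under a peak were not analysed here.

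Grouped by the number of control peaks, synthetases with few control peaks also had a knockdown peak more often than protein-coding genes. Of 9 synthetases with 1 control peak, LARS2 alone had no knockdown peak, against 43.1% of such protein-coding genes, and 4 had more knockdown peaks, against 21.9%. Only LARS2 among them had fewer, against the same 43.1%. Of 10 with 2 or 3 control peaks, 0 had no knockdown peak, against 23.6%, 3 had more, against 24.9%, and 2 had fewer, against 51.9%. Of 8 with 4 to 9, 5 had fewer, against 63.3%, 2 had more, against 23.4%, and 0 had no knockdown peak, against 11.2%.

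A list of 18 other genes, of transfer RNA charging and use together with NAT10 and THUMPD1, had 31 knockdown and 18 control peaks, 5 of each on NAT10. More knockdown peaks were found on 7 of the 11 with a peak and fewer on 3, beside 33.3% and 46.1% of protein-coding genes, and as many on NAT10. Scores of 20 or more ran the other way, with 7 of 31 knockdown peaks (22.6%) and 7 of 18 control peaks (38.9%). On protein-coding genes the shares were 14.7% and 11.7%. These control peaks lay on EEF1A1, TUFM, EIF2AK4 and NAT10 only, most of them on EEF1A1 and TUFM. The knockdown peaks of that score lay on EEF1A1, TUFM, NAT10 and AIMP1. The scaffold gene AIMP1 had 1 knockdown peak of 661 bp scored 28.88 and AIMP2 had 2, scored 10.69 and 0.6365, the second also over SNORA80D, with no control peak on either, and EEF1E1, the remaining scaffold, had none. The subunits of the mitochondrial amidotransferase that makes glutaminyl-tRNA followed the same order, with 3 knockdown peaks on GATB, 1 on QRSL1 and 1 on GATC, and 0 control peaks on each. The GATC peak lay on the opposite strand and overlaps SRSF9.

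EIF2AK4, the kinase that senses uncharged transfer RNA, had 8 knockdown peaks and 2 control peaks. Both control peaks overlapped knockdown peaks, and the highest score was 18.50 in the knockdown list and 22.04 in the control list. EEF1A1, the elongation factor that delivers charged transfer RNA in the cytosol, had 8 knockdown and 6 control peaks, though it has many near-identical copies. TUFM, its mitochondrial counterpart, had 2 and 3. THUMPD1 and MTFMT, the formyltransferase of mitochondrial initiator transfer RNA, each had 0 knockdown peaks and 1 control peak, scored 10.64 and 10.31, and the THUMPD1 peak also overlaps ACSM3. AARSD1, DTD1, DTD2, SEPSECS, PSTK and ATF4 had no peak.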

How the data were processed

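Peaks of ac4C immunoprecipitation were analysed as deposited, 1 list per arm. The submitters' processing notes name the build hg38 and the tools Bowtie2 2.4.1 and fastp 0.20.1. How peaks were called, with which threshold, and whether inputs or pooled replicates entered, is not given in the sources used. Each row of the deposited 12-column interval format carries a score as the authors gave it, and a block length equal to the peak's span. Peak numbering runs to 28092 in the knockdown list and 34407 in the control list, which exceeds the number of peaks in the lists by 45 and 42. The control list was matched by its name, and the other list was taken as the knockdown list.

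Gene spans came from a RefSeq table (GRCh38.p14), and exons were not used here. Strand came from the RefSeq promoter table for 30 of the 35 genes and otherwise from the majority of peaks. Promoter windows cover 250 bases before to 50 after a listed start. Overlaps used bedtools 2.31.1, with 1 bp on the same strand between lists, and Python 3.11.15, NumPy 2.4.6, pandas 2.3.3, SciPy 1.17.1 and matplotlib 3.10.9. Wilson intervals are at 95%. The procedure was tested on simulated data with known peak numbers. Total depth is unknown.

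Genes given in full were those with peaks in 1 list only, the 8 with the largest difference in peak number, the 5 with the highest score in each list and their partners. Members, lists and settings were chosen with earlier results of these data known. Alternatives varied overlap, strand, width, score, list length, gene uniqueness and merging. Chosen after seeing the data were the share of peaks with a score of 20 or more as a result and all its alternatives, the count restricted to genes with peaks of both arms, and the alternatives for the complex.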

Additional observations from a re-analysis of the deposited data

How the results depend on the processing

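Of 131 values recomputed under other settings, 91 were labelled as near the reported value and 40 as moved further. The label for near was wide: genes in the knockdown list only, 4 as reported and 6 with the control list shortened, were counted under it. No difference other than 0 changed sign. With scores of 20 or more only, 11 genes had a knockdown peak and 3 a control peak (10 and 2 cytosolic, 1 and 1 mitochondrial). Of these, 10 were in the knockdown list only, 2 in the control list only and 1 in both. Such peaks lay on 4069 protein-coding genes, 1324 in the knockdown list only, 1296 in the control list only and 1449 in both. Synthetase genes with more minus those with fewer knockdown peaks then came to 8 in all, 8 cytosolic and 3 of the complex. The difference in peaks came to 14 for cytosolic and 0 for mitochondrial genes. Both lists were cut to that score before the overlap, so a shared peak here overlaps another high-scoring peak. The shared peaks were then 5.56% in the knockdown and 25% in the control list, against 32.5% and 33.9% on protein-coding genes. With peaks of up to 1000 bp the differences in peaks were 1 in all, 1 cytosolic and 0 mitochondrial, those in genes 0, 1 and -1, with 3 for the complex, and 2 genes were in the control list only. The control share that overlapped was then 35.1%, and the difference in high-scoring peaks 9. With the control list shortened to equal length, the differences in peaks were 30, 20 and 10 and those in genes 15, 10 and 5, while protein-coding genes turned to 44.8% more and 36.8% fewer. Merging peaks within 100 bp gave differences of 5 for mitochondrial peaks and 2 for mitochondrial genes, at least 50% of the peak inside the gene gave -1 for mitochondrial genes, and peaks in 1 gene only left 2 genes in the knockdown list only. Genes with peaks in both lists gave a difference of 2, and reciprocal overlap a knockdown share of 34.1%. The difference in high-scoring peaks, 14 at a score of 20, was 6 at 15 and 4 at 30. The cause of these shifts was not tested. No paired analysis was possible because each arm has 1 peak list that does not separate the replicates.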

Other observations

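Synthetases fall into structural classes by the fold of their catalytic domain, with EPRS1 holding both. Class I genes had peaks on 17 of 18 in the knockdown list and 16 in the control list, with 51 and 40 peaks, more knockdown peaks on 8 and fewer on 3. Class II genes had peaks on 13 of 16 and on 11, with 37 peaks in both lists, more on 5 and fewer on 5. Of all protein-coding genes, 42.0% had a knockdown peak and 47.1% a control peak. Of those with a peak in either list, 33.3% had more knockdown peaks and 46.1% fewer. Median gene spans were 42329 bp for class I and 20682 bp for class II, and the part of span in the class counts was not tested. IARS1 and IARS2, the cytosolic and mitochondrial isoleucine enzymes, together account for 15 of the knockdown and 6 of the control peaks in class I.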
